A study of Mus musculus with 8 samples.

Results

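The CXC chemokines and their receptors were followed across the cells of mouse brains with and without a GL261 glioma. The genes are 7 ligands (Cxcl1, Cxcl2, Cxcl3, Cxcl9, Cxcl10, Cxcl12 and Cxcl16) and 3 receptors (Cxcr3, Cxcr4 and Cxcr6), taken as a list of names, 10 genes of the 32502 in the 8 deposited tables. Together they held 27744 of 38216264 unique molecular identifiers (UMIs, 1 per captured transcript), or 0.0726%, of which the ligands held 27187 and the receptors 557. The tables come from Drop-seq, in which the 3′ ends of transcripts are counted per droplet barcode. Libraries were made from C57BL/6 mice (C57BL/6N in the study's methods), either WT (Irg1/Acod1 +/+) or KO (Irg1/Acod1 -/-, which lack the enzyme that makes itaconate). One untreated (naïve) library was made per genotype, each named for 2 mice, and 1 library per genotype at each of 3 tumour stages after implantation of 500 GL261 cells. The stages were set by imaging at 5 to 10 mm3 (early), 20 to 25 mm3 (intermediate) and 30 to 35 mm3 (late), and the mice's ages are not in the labels. The female mice with a tumour were those of the WT early and KO intermediate libraries, so that at 2 of the 3 stages sex and genotype cannot be told apart. No source used here gives the sex of the naïve animals. By the study's methods the tumour samples were the tumour core, outlined by imaging, and the naïve samples were naïve brains. Between tumour and naïve libraries, tissue region and tumour therefore cannot be told apart. GL261 is a carcinogen-induced glioma line of the same mouse strain. With 1 library per condition, a p-value compares libraries across stages or cell classes and no condition has a replicate of its own.

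CXC chemokines are small secreted proteins that steer cells along a gradient by binding receptors coupled to inhibitory G proteins. CXCL1, CXCL2 and CXCL3 attract neutrophils through CXCR2, CXCL9 and CXCL10 are induced by interferons and attract activated T cells through CXCR3, and CXCL12 holds cells that carry CXCR4 near vessels and in bone marrow. CXCL16 is made as a membrane-bound protein and binds CXCR6, a receptor of effector and memory T cells. In gliomas the ligands are known from macrophages, vessels and the tumour cells themselves.

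After the cell filters 5698 cells remained, with a median depth of 2607.5 to 5642.5 UMIs per cell between libraries, and 2 of 5691 barcodes occurred in more than 1 library. Cells were clustered without any CXC-family gene, so that the ligands and receptors took no part in defining the classes, and the classes were named from marker lists that hold no CXC gene. They were 3389 tumour cells, 416 macrophage-like cells (TAM II, 1 of them naïve), 376 microglia-like cells (TAM I in tumours, 202 of them naïve), 367 oligodendrocytes, 289 astrocytes, 265 endothelial cells, 188 lymphocytes, 67 mural cells and fibroblasts, 26 dendritic cells, 36 unnamed myeloid cells, and 5 further classes of 38 to 73 cells. All 12 macrophage markers were found in TAM II in each tumour library and all 11 microglia markers in the microglia-like class in each library. Acod1 in TAMs was at 164, 48.9 and 20.4 counts per 1000000 UMIs of the same cells (CPM) in the WT early, intermediate and late libraries and at 58.2, 11.6 and 61.1 in the KO libraries. Acod1 was higher in the library labelled KO late than in that labelled WT late, with overlapping intervals. By the study's methods the genotypes were checked by PCR and the KO allele holds a cassette within the gene. The paper also reports Acod1 as undetectable by qPCR in cultured bone marrow-derived macrophages of KO mice. Where in the transcript the UMIs counted here lie was not tested, so WT and KO stand below for the labels as given.

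Several ligands lie in clusters of genes, and the DNA in front of these is shown because these are the neutrophil and T cell attractants whose levels in TAM II, TAM I and tumour cells are given below. In GENCODE M21 on GRCm38, the build named in the submitters' processing notes, Cxcl3, Cxcl1 and Cxcl2 lie in this order on the plus strand of chromosome 5, with 101640 bases from Cxcl3 to Cxcl1 and 10755 from Cxcl1 to Cxcl2. Cxcl9 and Cxcl10 follow on the minus strand 1415408 bases farther on, 18558 bases apart. The other members lie on chromosomes 6 (Cxcl12), 11 (Cxcl16), X (Cxcr3), 1 (Cxcr4) and 9 (Cxcr6). The RefSeq promoters (GRCm38.p6) of 9 members were read over the 250 bases before the RefSeq start. Those of these 5 are given 5′ to 3′ on the strand of the gene, without bases that lie in the GENCODE gene. They span chr5:90785851-90786100 (Cxcl3, plus strand), chr5:90890995-90891240 (Cxcl1, plus), chr5:90903649-90903870 (Cxcl2, plus), chr5:92328080-92328329 (Cxcl9, minus) and chr5:92348890-92349139 (Cxcl10, minus). Capitals mark every match, on either strand, to a kappaB-type motif (GGG, any 3 bases, then TTCC) or an interferon-response-type motif (GAAA, any 2 bases, then GAAA).

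Cxcl3: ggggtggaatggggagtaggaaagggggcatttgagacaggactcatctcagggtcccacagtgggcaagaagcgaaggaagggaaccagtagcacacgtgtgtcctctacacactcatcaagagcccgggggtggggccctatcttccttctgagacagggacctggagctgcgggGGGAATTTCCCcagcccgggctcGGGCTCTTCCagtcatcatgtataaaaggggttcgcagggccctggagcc
Cxcl1: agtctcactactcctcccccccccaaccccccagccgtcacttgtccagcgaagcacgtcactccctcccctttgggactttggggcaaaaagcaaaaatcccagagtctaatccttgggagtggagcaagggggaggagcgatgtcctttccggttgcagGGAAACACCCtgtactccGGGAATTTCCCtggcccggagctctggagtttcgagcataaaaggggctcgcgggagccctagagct
Cxcl2: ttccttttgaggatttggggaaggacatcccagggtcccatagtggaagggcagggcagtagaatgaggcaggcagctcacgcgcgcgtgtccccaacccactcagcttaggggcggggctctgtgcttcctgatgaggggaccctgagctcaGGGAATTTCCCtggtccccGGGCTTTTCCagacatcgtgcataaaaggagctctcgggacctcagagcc
Cxcl9: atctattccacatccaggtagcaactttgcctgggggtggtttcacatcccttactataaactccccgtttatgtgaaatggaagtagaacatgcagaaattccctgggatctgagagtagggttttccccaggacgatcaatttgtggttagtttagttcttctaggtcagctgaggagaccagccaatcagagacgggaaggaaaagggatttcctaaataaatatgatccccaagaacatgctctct
Cxcl10: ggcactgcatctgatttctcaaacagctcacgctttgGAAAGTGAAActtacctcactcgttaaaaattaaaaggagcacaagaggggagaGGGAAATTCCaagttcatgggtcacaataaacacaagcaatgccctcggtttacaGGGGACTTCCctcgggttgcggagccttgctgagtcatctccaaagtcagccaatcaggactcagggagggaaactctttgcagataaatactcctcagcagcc

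The kappaB-type letters, bound by NF-kappaB, occurred in the promoters of Cxcl1, Cxcl2, Cxcl3 and Cxcl10, against 4.65% of 32851 mouse promoters of 250 bases. A GGGAATTTCC match stood 71, 97 and 73 bases before the RefSeq start of Cxcl1, Cxcl2 and Cxcl3, and in each it overlapped a match on the other strand 1 base closer. The sequences printed for Cxcl1 and Cxcl2 end 4 and 28 bases before that start, where the GENCODE gene begins. Cxcl10 held 2 kappaB-type matches, at 159 and 104 bases, and an interferon-response-type match at 213 bases, a motif in 2.98% of promoters. Neither motif was in the windows of Cxcl9, Cxcl12, Cxcr3, Cxcr4 or Cxcr6. A GAS-type motif (TTC, any 3 bases, then GAA), found in 7.02% of promoters, was also searched and had 0 matches in the 9 members. A match is a description of the letters and not of a bound site.

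Each ligand had a leading class in the tumour libraries. Macrophage-like cells held 90.6% of the Cxcl2 UMIs, 77.4% of the Cxcl1, 61.8% of the Cxcl9 and 68.7% of the Cxcl16 UMIs. Tumour cells held 83.5% of the Cxcl10 UMIs, and endothelial cells held 80.5% of the Cxcl12 UMIs. Among receptors, lymphocytes held 78.9% of the Cxcr6 and 80.0% of the Cxcr3 UMIs, and TAM II held 71.6% of the Cxcr4 UMIs. These shares rest on how many cells of a class were captured, so levels below are CPM.

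**Figure D1:**
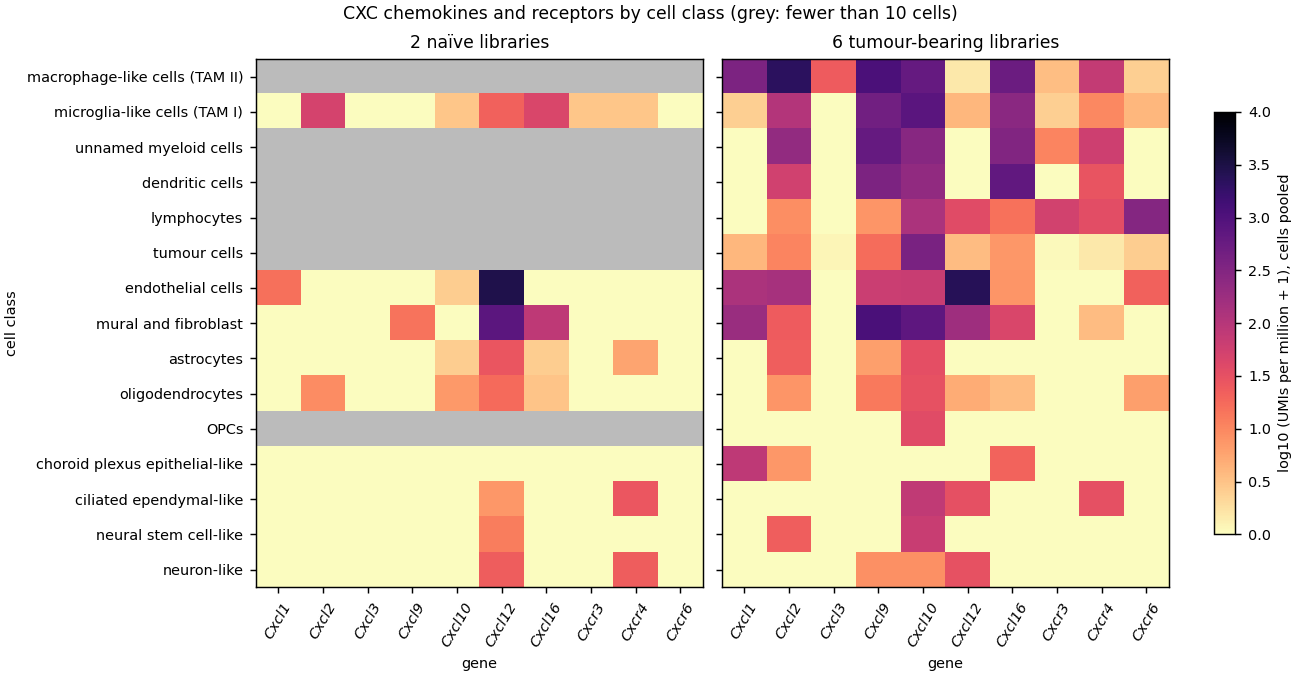
The colour gives log10 (CPM + 1) of each gene (columns) in the pooled cells of each class (rows), for the 2 naïve libraries on the left and the 6 tumour-bearing libraries on the right. Darker is higher, and classes under 10 cells are grey. Cxcl12 is darkest in endothelial cells on both sides, Cxcl2 in TAM II and Cxcr6 in lymphocytes of the tumour libraries, and Cxcl10 is spread over myeloid, tumour, and mural and fibroblast cells.

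The neutrophil attractants Cxcl1, Cxcl2 and Cxcl3 had most of their UMIs in the macrophage-like cells. Cxcl2 in TAM II was at 1034, 3814 and 1778 CPM in the WT early, intermediate and late libraries, and at 2413, 4329 and 1375 CPM in the KO libraries. Cxcl2 in TAM I of the same libraries was at 171, 173 and 112 CPM in WT and at 0, 74.0 and 0 CPM in KO. The 2 classes did not overlap in any library, and Cxcl2 was higher in TAM II by 4.51 ± 0.46 on the log2 scale (SE, 6 of 6 libraries, edgeR adjusted p = 1.25e-06). Cxcl1 in TAM II was at 182, 1530 and 346 CPM in WT and at 214, 663 and 253 CPM in KO, and the WT intermediate library, with 16 TAM II cells, stood above the rest. In TAM I a single Cxcl1 UMI was counted, in the KO late library, and Cxcl1 was higher in TAM II by 7.37 ± 0.48 (6 of 6 libraries, adjusted p = 1.41e-08). Mural cells and fibroblasts also held Cxcl1, at 78.2 to 211 CPM in the 4 tumour libraries with at least 5 of them, which overlaps the lowest TAM II values. Cxcl3 was sparse, with 47 of its 52 UMIs in TAM II, at 1.74 to 106 CPM per library, and at 0 in TAM I. It passed no filter for this test.

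Inside TAM II the expression was uneven. The 10% of TAM II cells with the most Cxcl2 held 47.2% to 86.0% of the UMIs in each library, and 64 of the 71 cells with a Cxcl1 UMI (90.1%) also held Cxcl2, against 41.0% of the other TAM II cells, at median depths of 4903 and 3029.5 UMIs. TAM II was made of 3 sub-clusters, and Cxcl2 was at 2598, 1844 and 2688 CPM in them, against 111 CPM in the microglia-like cells that predominated in tumours. No class was named for neutrophils. Their 6 markers summed to 11.8 to 79.1 CPM in TAM II with S100a9 and Retnlg at 0. Cxcr2, the receptor of these ligands, had 3 UMIs in all retained cells. Whether barcodes removed by the filters held neutrophils was not tested.

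**Figure D2:**
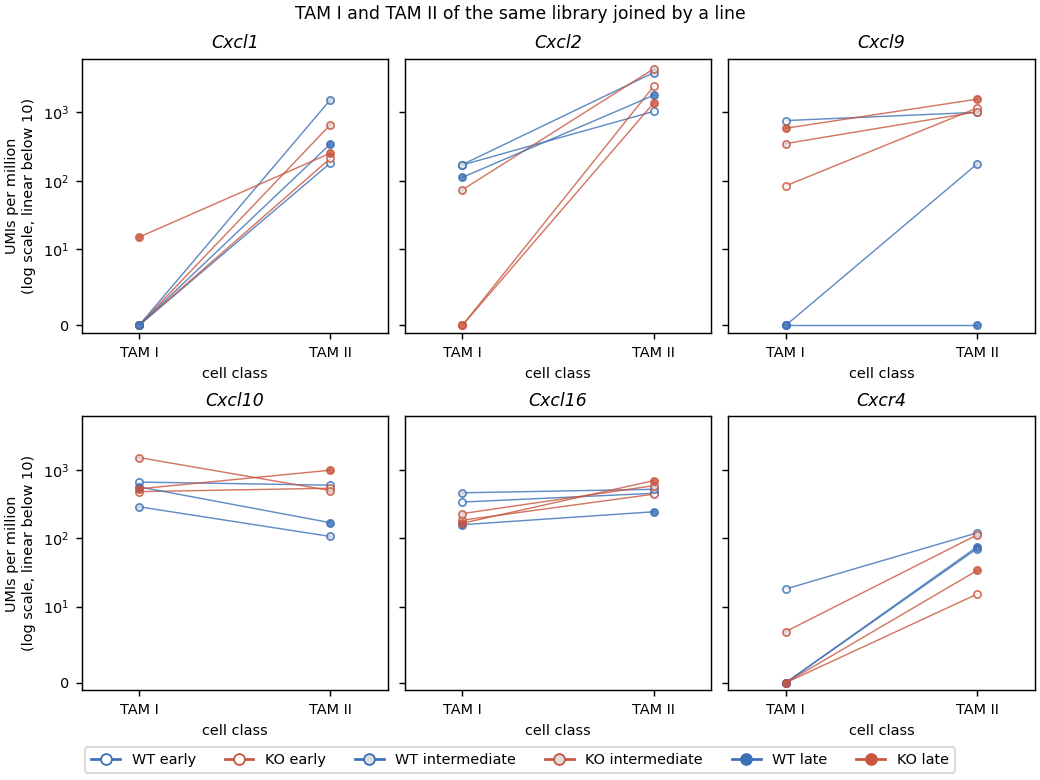
Each panel plots CPM on a log axis that is linear below 10 for 1 gene in TAM I and TAM II, with a line joining the 2 classes of a library, blue for WT and red for KO, and points open for early, pale for intermediate and full for late. The lines for Cxcl1, Cxcl2, Cxcl16 and Cxcr4 rise to TAM II in all 6 libraries, those for Cxcl9 in 5, and those for Cxcl10 go both ways.

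Of the members, 5 passed the filter in the comparison of TAM II with TAM I, and 4 of them were higher in TAM II, where 15.1% of the 2331 genes tested were. Genes outside the CXC family had defined the 2 classes, so that background is not independent of them. Cxcl1 passed the filter with 719 UMIs in TAM II and 1 in TAM I, so the count of members is a description. Cxcl16, the CXCR6 ligand, was at 453, 518 and 243 CPM in TAM II of the WT libraries and at 440, 586 and 695 CPM in KO. In TAM I it was at 337, 460 and 157 CPM in WT and at 183, 229 and 165 CPM in KO. The ranges overlapped, but TAM II was higher within each library, by 0.93 ± 0.22 (6 of 6, adjusted p = 0.00421). Cxcl16 was the most evenly spread ligand of TAM II: 66.7% to 93.8% of cells held a UMI, and the 10% of cells with the most held 34.4% to 38.9% of its UMIs. Dendritic cells had a like level, 545 and 547 CPM in the 2 libraries with at least 5 of them.

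The T cell attractants Cxcl9 and Cxcl10 differed in the class that held most of their UMIs. Cxcl9 in TAM II was at 1001, 177 and 0 CPM in the WT early, intermediate and late libraries, and at 1158, 1017 and 1559 CPM in KO. The 177 CPM are 15 UMIs of 1 cell, and 0 of 21 WT late cells held a UMI, which allows up to 28.1 CPM. Cxcl9 in TAM I was at 758, 0 and 0 CPM in WT and at 84.6, 350 and 586 CPM in KO. TAM II was the higher class in 5 of 6 libraries, with WT late at 0 in both, by 1.44 ± 0.33 (adjusted p = 0.00392).

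Cxcl10 was the most widely detected member, in 1694 cells or 29.7% of all. In tumour cells it was at 425, 343 and 55.3 CPM in the WT early, intermediate and late libraries and at 535, 536 and 624 CPM in KO. In TAM II it was at 595, 106 and 168 CPM in WT and at 537, 496 and 984 CPM in KO, and in TAM I at 660, 288 and 562 CPM in WT and at 479, 1507 and 526 CPM in KO. The 3 classes overlapped. TAM II and TAM I differed by -0.57 ± 0.30, which did not pass the test (higher in TAM II in 2 of 6, adjusted p = 0.163; without the KO late library -0.88, adjusted p = 0.0258). Tumour cells differed from all other cells by 0.08 ± 0.34 (higher in 4 of 6, adjusted p = 0.856).

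The other members were low in tumour cells. Of 7 members tested there, 6 were lower in tumour cells than in other cells, where 32.7% of 13023 genes were: Cxcl1, Cxcl2, Cxcl9, Cxcl12, Cxcl16 and Cxcr4, at log2 differences of -6.82 to -4.65. A gene can pass the filter through the other cells alone, so this count is a description. Cxcl9 in tumour cells ran from 0.34 CPM (WT late) to 44.3 CPM (KO late), and Cxcl2 from 1.36 CPM (WT early) to 34.2 CPM (KO late). The KO late tumour cells also held the most macrophage marker UMIs, 858 CPM over 12 markers with Chil3 at 0, against 119 to 252 CPM in the other libraries, and the most lymphocyte marker UMIs, 233 CPM against 2.75 to 59.0; their part in these levels was not tested.

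Cxcl10 in tumour cells was concentrated in few cells. The 10% of tumour cells with the most Cxcl10 held 68.2% to 92.4% of its UMIs per library. With each cell thinned to 1000 UMIs, 19.6%, 11.1% and 3.80% of WT tumour cells held a Cxcl10 UMI at the early, intermediate and late stage, and 33.7%, 21.0% and 27.5% of KO tumour cells. Unthinned, the shares were 49.5%, 26.5% and 18.1% in WT and 62.8%, 46.3% and 54.2% in KO. Oligodendrocytes, not known as a main source, held one in 0% to 10.3% of thinned cells of the same libraries, at a median depth of 2828 UMIs before thinning against 4886 in tumour cells. Tumour cells were above oligodendrocytes in 6 of 6 libraries, in WT late at 3.80% and 0%.

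Mural cells and fibroblasts, 47 cells of the tumour libraries, gave Cxcl9 levels that rested on very few cells. Cxcl9 was at 2134 CPM in WT early, 1923 in KO early, 808 in KO intermediate and 0 in WT late, the 4 tumour libraries with at least 5 of these cells, yet 212 of the 243 UMIs in WT early came from 1 cell and 8 of the 47 cells held any. The 7 of these cells with the most Cxcl9 held 190 to 1175 UMIs of mural and fibroblast markers and 0 to 23 of macrophage markers. Cxcl10 was at 808 and 2872 CPM in the early WT and KO libraries, with 77 of 92 and 100 of 106 UMIs in 1 cell each, at 222 CPM in KO intermediate and at 0 in WT late.

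Cxcl12 had its highest level in the endothelium. Its level in endothelial cells was 2725 and 3127 CPM in the naïve WT and KO libraries, 2760 and 1161 CPM in the early, 3100 CPM in KO intermediate, and 1874 and 2534 CPM in the late WT and KO libraries. KO early, with 13 cells, was the lowest. Between 69.2% and 100% of endothelial cells held a UMI in these libraries. Endothelial cells were higher than the other non-tumour cells by 6.71 ± 0.44 (7 of 7 libraries, adjusted p = 8.52e-10), 1 of 5 members tested that was higher, where 13.7% of 6638 genes were. Tumour-bearing and naïve endothelium differed by -0.39 ± 0.32 (adjusted p = 0.622, 5 libraries against 2), the only member tested there, where 4.91% of 1100 genes passed.

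Other members were scarce in the endothelium. Cxcl2, Cxcl9 and Cxcl10 were lower than in the other non-tumour cells, at log2 differences of -3.35 ± 0.68, -3.30 ± 0.56 and -2.67 ± 0.50 (adjusted p = 0.000596, 0.000143 and 0.00031), and 19.4% of genes were lower. The Cxcl9 call was lost under 4 alternatives (DESeq2, adjusted p = 0.319; clustering with the CXC genes, another tSNE seed and at least 500 genes per cell, adjusted p 0.146 to 0.148) and turned to 0.39 with mural-like cells kept in the class, where the Cxcl10 call was lost too (-0.15, adjusted p = 0.898). Cxcl1 was at 0.23 ± 0.59 (adjusted p = 0.823). Without the KO late library the Cxcl2 difference was -5.19 (adjusted p = 2.43e-07). In KO late, 26 Cxcl1 and 34 of 37 Cxcl2 UMIs came from the same endothelial cell, which held 28 endothelial and 0 macrophage marker UMIs among its 4423.

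Mural cells and fibroblasts were the next source of Cxcl12, at 369 and 900 CPM in the naïve libraries and 18.2 to 596 CPM in the 4 tumour libraries with at least 5 of these cells. In tumour cells Cxcl12 was at 0.63 to 6.80 CPM. Ackr3, the scavenging receptor of CXCL12, was at 18.9 to 52.6 CPM in tumour cells and was higher there than in the sum of all other cells by 1.42 ± 0.32 (adjusted p = 0.00248). Endothelial cells held more of it, 119 CPM over their cells, and mural cells and fibroblasts 54.5 CPM.

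**Figure D3:**
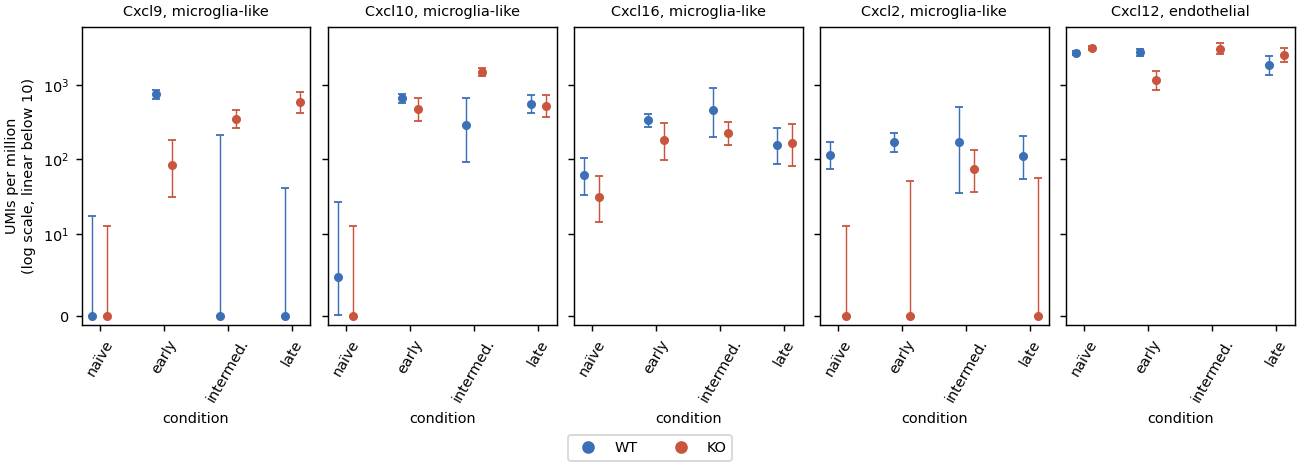
CPM (log axis, linear below 10) is plotted per library with exact 95% Poisson intervals, for microglia-like cells in the first 4 panels and endothelial cells in the last, blue for WT and red for KO. Cxcl9 and Cxcl10 in the naïve microglia-like cells lie at or near 0, while Cxcl12 in endothelial cells is above 1000 in all libraries with at least 5 cells.

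Microglia-like cells held more Cxcl9, Cxcl10 and Cxcl16 in the tumour libraries than in the naïve ones. Cxcl10 was at 4.76 and 0 CPM in the naïve WT and KO libraries, from 1 UMI, and at 288 to 1507 CPM in the 6 tumour libraries, with no overlap. It was higher by 8.00 ± 0.92 (adjusted p = 3.17e-05, 6 libraries against 2). Cxcl9 was at 0 in both naïve libraries and above 0 in 4 of 6 tumour libraries, at least 76.2-fold higher over all cells against 3 counts over the naïve group (adjusted p = 0.00522). Cxcl16 was at 61.9 and 31.1 CPM in naïve and at 157 to 460 CPM in tumour libraries, higher by 2.45 ± 0.43 (adjusted p = 0.00124).

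These were 3 of the 4 members tested, where 9.14% of 3238 genes were higher. Cxcl9 and Cxcl10, with 0 and 1 UMIs in the naïve libraries, passed the filter through the tumour libraries, so this count is a description. Cxcl2 differed by 1.07 ± 0.71 (adjusted p = 0.324), and its 24 UMIs in the naïve WT library came from 1 cell. Without either naïve library the Cxcl9 call was lost (adjusted p = 0.0728 and 0.0822), and without the KO naïve library so was that of Cxcl16 (2.16, adjusted p = 0.0822). Macrophage markers in the class moved the same way, from 401 and 834 CPM in the naïve to 2480 to 6234 CPM in the tumour libraries, with Arg1, F13a1, Ms4a7 and Chil3 at 0 in KO late; their part was not tested. The class was made of 2 sub-clusters, and 160 of the 164 cells of one and 14 of the 212 of the other came from tumour libraries. Astrocytes and oligodendrocytes had no member that passed the filter, where 1.92% and 2.35% of genes passed the test.

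Receptors were few in UMIs, and Cxcr6 and Cxcr3 shared a leading class, the lymphocytes. Cxcr6 in lymphocytes was at 324 and 0 CPM in the WT early and intermediate libraries and at 387, 204 and 437 CPM in the KO early, intermediate and late libraries. Cxcr3 was at 50.2 and 0 CPM in WT and at 29.0, 23.2 and 133 CPM in KO. The WT intermediate and late libraries held only 6 and 4 lymphocytes, none of the 6 held a CD3 UMI (against 59 of 69 in WT early and 33 of 41 in KO intermediate), and 3 UMIs would have been 71.6 CPM in the former. Over the 5 libraries with at least 5 lymphocytes, lymphocytes held 227 Cxcr6 and 39 Cxcr3 UMIs and TAMs 5 and 6. Neither receptor passed the filter on low counts, so neither was tested, and both were higher in lymphocytes in 4 of 5 libraries.

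Cxcr6 and Cxcr3 were higher in the lymphocytes with T cell transcripts. In the 146 tumour-library lymphocytes with a UMI of a CD3 chain, Cxcr6 was at 365 CPM and Cxcr3 at 63.0 CPM. In the 41 without, Cxcr6 was at 13.5 CPM and Cxcr3 at 6.76 CPM, from 2 and 1 UMIs. Cxcr4 was at 32.3 CPM with and 40.6 CPM without a CD3 UMI, with overlapping intervals. The cells with CD3 held Cd8a at 556 CPM and Ncr1, a natural killer cell receptor, at 0, and those without held Cd8a at 13.5 CPM and Ncr1 at 196 CPM. These values pool cells over libraries and were not tested.

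**Figure D4:**
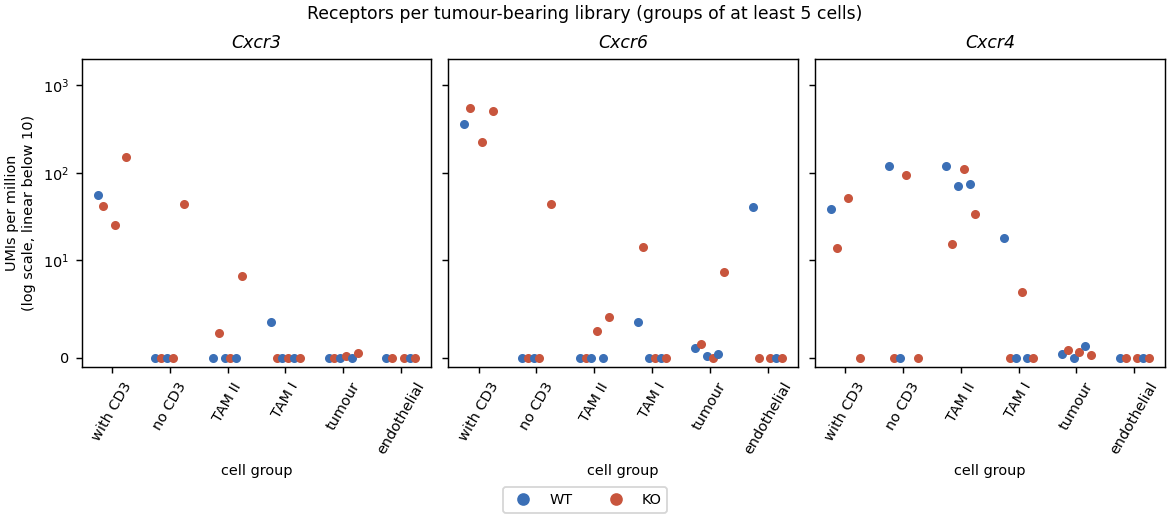
CPM (log axis, linear below 10) of Cxcr3, Cxcr6 and Cxcr4 is plotted per tumour library for lymphocytes with and without a CD3 UMI, TAM II, TAM I, tumour and endothelial cells, blue for WT and red for KO. Groups under 5 cells are left out. Cxcr6 and Cxcr3 are highest in lymphocytes with CD3, and Cxcr4 in TAM II and lymphocytes.

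Cxcr4 had most of its UMIs in TAM II. In TAM II it was at 120, 70.6 and 74.9 CPM in WT and at 15.3, 112 and 33.8 CPM in KO, above TAM I (0 to 18.1 CPM) in 6 of 6 libraries. With 146 UMIs in TAM II and 6 in TAM I, Cxcr4 did not pass the filter and was not tested. Lymphocytes held 0 to 55.6 CPM in the 5 libraries with at least 5 of them and were lower than TAMs, at -1.31 ± 0.37 (0 of 5 libraries higher, adjusted p = 0.00718). Tumour cells held 0 to 1.19 CPM.

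Source and receiver classes were also compared within the same libraries. Of 6 members tested between lymphocytes and TAMs, all 6 were lower in lymphocytes, where 25.5% of 4169 genes were. Cxcr6 and Cxcr3, with more UMIs in lymphocytes, did not pass the filter, while Cxcl1 passed with 0 UMIs in lymphocytes against 683 in TAMs. The filter thus shaped this count, which is not a result about the members as a set. Cxcl1 was not found in lymphocytes of these libraries, and its level over all TAMs was 69.5-fold above 3 counts in lymphocytes. Cxcl2, Cxcl9, Cxcl16 and Cxcl10 were lower, at log2 differences of -8.13 ± 0.34, -7.39 ± 0.39, -5.29 ± 0.37 and -2.93 ± 0.34, each with an adjusted p of at most 9.32e-07. Cxcl10 in lymphocytes reached 430 CPM in KO late, where the barcodes outside the 1000 largest held 425 CPM and oligodendrocytes 39.8 CPM. The macrophage markers summed to 1626 to 3438 CPM in lymphocytes, against 26584 to 34667 CPM in TAM II; their part was not tested.

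By genotype, the WT and KO libraries stood farther apart in Cxcl9 and Cxcl10 of TAM II after the early stage. In TAM II the KO to WT log2 ratio of Cxcl9 was 0.21 at the early stage (95% interval 0.03 to 0.39) and 2.53 (1.79 to 3.38) at the intermediate stage. At the late stage WT was at 0 and the ratio had only a lower limit, 5.49. For Cxcl10 the ratio was -0.15 (-0.40 to 0.10), 2.23 (1.27 to 3.38) and 2.55 (1.87 to 3.31). In tumour cells it was 0.33 (0.23 to 0.44), 0.64 (0.57 to 0.72) and 3.50 (3.33 to 3.67). The intervals cover counting error of 1 library against 1 library only.

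**Figure D5:**
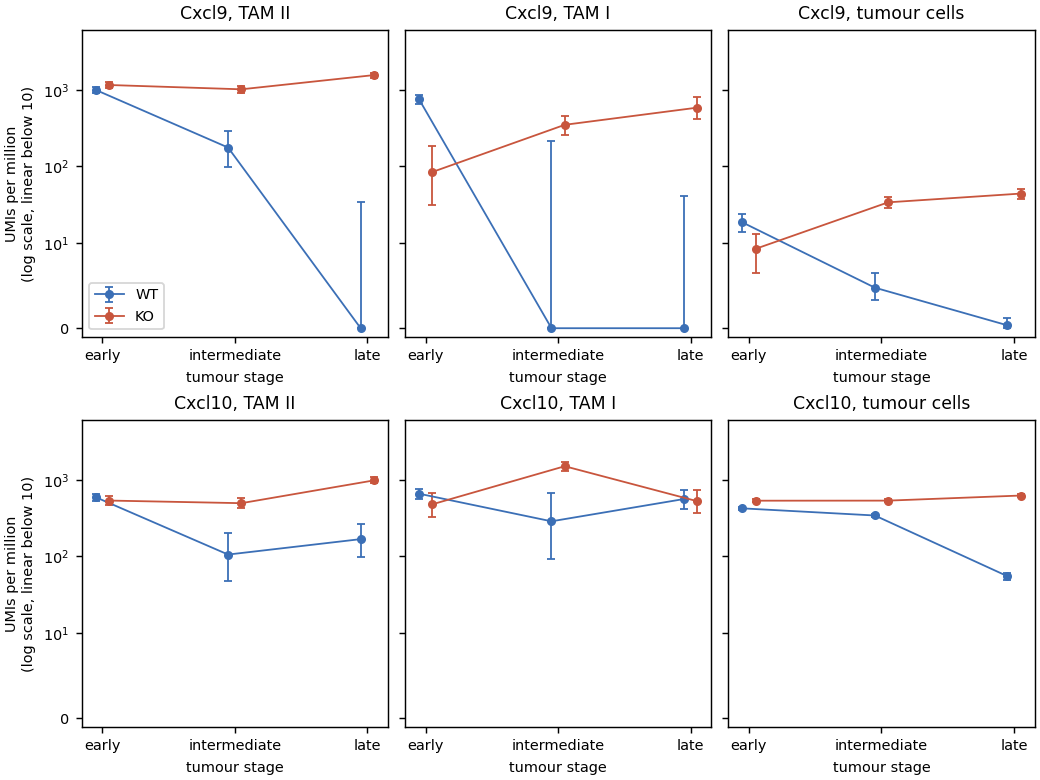
CPM (log axis, linear below 10) of Cxcl9 (top) and Cxcl10 (bottom) is plotted against tumour stage in TAM II, TAM I and tumour cells, with exact 95% Poisson intervals, 1 library per point, blue for WT and red for KO. In TAM II and tumour cells the WT points fall below the KO points at the intermediate and late stages.

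Over the 3 stages these differences did not pass the test. Cxcl9 in TAM II was higher in KO by 2.42 ± 0.72 (3 of 3 stages, adjusted p = 0.352) and Cxcl10 by 1.40 ± 0.45 (2 of 3, adjusted p = 0.533), and none of 6 members passed, where 0.11% of 5450 genes did. Without the WT early library both passed (4.17 and 2.51, adjusted p = 1.28e-14 and 5.50e-06), as without the KO early library (4.17 and 2.51, adjusted p = 2.71e-07 and 0.000109), and Cxcl9 did without WT intermediate (2.36, adjusted p = 0.00116). Without WT late or KO late the differences were smaller and did not pass, at 1.20 for Cxcl9 (adjusted p = 0.781 and 0.700) and at 0.79 for Cxcl10 (adjusted p at least 0.999). In tumour cells none of 6 members passed, where 0.0146% of 13686 genes did: Cxcl1 was at 2.60 ± 0.46, Cxcl2 at 1.86 ± 0.37 (adjusted p = 0.400 for both) and Cxcl10 at 1.45 ± 0.58 (adjusted p = 0.741), each higher in KO in 3 of 3 stages. DESeq2 called Cxcl2 there (1.91, adjusted p = 0.0415). Cxcl1 was found in only 17 of 3389 tumour cells. At the intermediate stage 1 cell of each library held it, with 39 UMIs in KO and 10 in WT. Those cells had depths of 101449 and 61351 UMIs. In WT early Cxcl1 was at 1 UMI.

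In TAM I none of 3 members passed, where 0% of 1453 genes did (61 at an unadjusted p under 0.05 with edgeR, 1 called by DESeq2). Cxcl9 in TAM I was lower in KO than in WT at the early stage, at a log2 ratio of -3.17 (-4.63 to -2.02). At the late stage, with WT at 0, Cxcl9 was higher in KO, with a lower limit of 3.75. Over the stages it differed by 1.04 ± 1.49 (adjusted p = 0.999), by 8.44 without WT early (adjusted p = 2.60e-09) and by 8.94 without KO early (adjusted p = 9.92e-05). In lymphocytes Cxcr6 differed by 1.11 ± 0.87 and Cxcl10 by 1.67 ± 0.90 (adjusted p = 0.999 for both), none of 2 tested, where 0.0318% of 3149 genes passed. At the intermediate stage this sets 6 WT cells without a CD3 UMI, with Ncr1 at 286 CPM, against KO cells of which 33 of 41 held one, and the part of this make-up was not tested.

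By stage, no member passed between late and early tumours in TAM II (7 tested, 0% of 6222 genes called) or TAM I (4 tested, 0% of 1820). At an unadjusted p under 0.05, edgeR gave 339 and 85 genes, and DESeq2 called 0 and 4. WT and KO went apart for Cxcl9. In TAM II the log2 ratio of WT late, at 0, to WT early had an upper limit of -4.85. That of KO late to KO early was 0.43 (0.26 to 0.60). The fitted change was -1.89 ± 0.86 (adjusted p = 0.864) and passed without KO early (-4.03), WT intermediate (-1.82) or KO late (-10.86), at adjusted p of 6.08e-05, 0.0487 and 6.66e-10. Without WT early it was -0.032 and without WT late -0.26, and neither passed.

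The rest of the pathway was followed over 32 further genes of ligands, receptors, sheddases, interferon and NF-kappaB signalling, of which 28 had a UMI. Between TAM II and TAM I, 4 of 16 tested were higher in TAM II and 2 lower, where 15.1% and 15.7% of all genes tested were. Pf4, the ligand CXCL4, was higher by 7.76 ± 0.42, and Cd74, a receptor chain of MIF, by 1.11 ± 0.33. The other two higher were Rgs1 (0.90 ± 0.19) and Mif (0.81 ± 0.17), and the lower ones were the NF-kappaB genes Nfkb1 (-0.76 ± 0.27) and Nfkbiz (-0.75 ± 0.23). In tumour-bearing against naïve microglia-like cells 7 of 18 were higher and 2 lower, where 9.14% and 6.73% of genes were. Higher were Cxcl13, a B cell attractant, by 8.51 ± 2.13, Cd74 by 4.58 ± 1.51, the interferon-pathway factor Irf1 by 2.63 ± 0.49 and the cytokine Mif by 2.16 ± 0.42. The 2 lower genes were Ifngr1, a chain of the interferon-gamma receptor, at -1.82 ± 0.37 and Rgs2, like Rgs1 a regulator of G protein signalling, at -1.36 ± 0.35.

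In lymphocytes against TAMs 1 of 17 was higher, Ifngr1 by 1.74 ± 0.19, and 13 were lower, led by Pf4 at -10.06 ± 0.55 and Cd74 at -4.46 ± 0.33, where 18.9% and 25.5% of genes were. In tumour against other cells 2 of 22 were higher, Ackr3 and Mif (1.32 ± 0.11), and 18 lower, led by Pf4 at -6.87 ± 0.66 and Rgs1 at -5.79 ± 0.53, where 30.8% and 32.7% of genes were. Endothelial cells had 3 of 18 higher and 9 lower than other non-tumour cells, where 13.7% and 19.4% of genes were. The lower ones were led by Rgs1 at -5.87 ± 0.41 and Cd74 at -5.34 ± 0.40, and the higher ones were Nfkbia, an inhibitor of NF-kappaB, by 1.00 ± 0.32, Adam10, which sheds CXCL16, by 1.00 ± 0.20 and Gnai2, an inhibitory G protein subunit, by 0.62 ± 0.20. Tumour-bearing endothelium and oligodendrocytes had 1 of 4 and 2 of 6 higher than naïve, where 3.91% and 1.67% of genes were, with Cd74 in both, astrocytes none of 3, and neither genotype nor stage gave any call. Between cell classes, genes of this list outside the CXC family had taken part in the clustering, so those counts are descriptions.

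The genes most like each member were found over 55 sums of library and class. Cxcr6 was nearest to Cd3g, Cd8b1 and Il2rb (Pearson r 0.97 for each), Cxcr3 to Gzma, Gimap3 and Icos (0.93 each), and Cxcl12 to C130074G19Rik, Adgrf5 and Emcn (0.96 to 0.97). Cxcl16 was nearest to Bcl2a1a, Clec7a and Csf2rb (0.91 to 0.93), Cxcl2 to Msr1, Il1rn and Clec4e (0.83 to 0.86), Cxcl1 to Thbs1, Arg1 and Cd93 (0.76 to 0.79) and Cxcl3 to F13a1, Clec4e and Pf4 (0.80 each). Cxcl10 was nearest to Il18bp, Zbp1 and Ifi213 (0.78 to 0.83), Cxcl9 to Ifi211, H2-Ab1 and Fam26f (0.75 to 0.77) and Cxcr4 to Adam8, Runx3 and Gpr132 (0.78 to 0.82). The sums share libraries and classes and are not independent.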

How the data were processed

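The authors made the deposited UMI counts with bcl2fastq 2.0, STAR and the Drop-seq pipeline, per the labels and methods; the STAR version is not given in the sources used here, and the counts are not normalized. Each library is a table of 3000 barcodes. The 1000 largest barcodes per library were kept, then genes in at least 30 cells for clustering and cells in which 1000 genes or more were detected. Clustering left out 14 CXC-family genes and ran from 50 principal components, by tSNE (perplexity 50, Rtsne 0.17) and HDBSCAN (at least 19 cells, scikit-learn 1.9.0). A cluster high in both microglia and macrophage markers was divided again by Leiden clustering (leidenalg 0.10.2) on its own components. This gave TAM I, TAM II, dendritic and unnamed myeloid cells. Cells of the endothelial cluster with more mural and fibroblast than endothelial marker UMIs were moved to the mural and fibroblast class. Classes got their names here from lists of markers, not from the study's own annotation, and a departure from its values may be due to these rebuilt names. Doublets were kept; an alternative removed 279 cells, those marked by Scrublet or, in libraries with under 0.5% marked, the 5% with the highest score.

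CPM are member UMIs per 1000000 UMIs of the same cells, with exact 95% Poisson intervals, shares exact binomial intervals and ratios of 2 libraries exact binomial intervals, all for counting error only. A count of 0 allows 3 counts. UMIs were summed per library and class with at least 5 cells and tested with edgeR 4.0.16 (TMM, filterByExpr, quasi-likelihood, R 4.3.3) at a Benjamini-Hochberg adjusted p of 0.05 over all genes, with the library (between classes), genotype (against naïve) or stage (KO against WT) in the model. The code was tested on simulated data. Alternatives were DESeq2 1.42.0, no filter, other cell minima, clusterings and blocks, and leaving out each library. Likeness is Pearson's r of log2(CPM + 10) over sums of at least 10 cells and 20000 UMIs, among 8212 genes whose mean reached 20 CPM, 3 genes per member. Promoters are RefSeq's (GRCm38.p6) and gene positions GENCODE M21's. The members and lists were chosen with earlier results of these data known. All members are named, and of the pathway list up to 5 genes past the threshold per comparison, by size of change; where 3 or fewer passed in a direction, those outside this rule were named after their values were seen. Values of 1 gene of that list are not reported here.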

Additional observations from a re-analysis of the deposited data

Results flagged for a closer look

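Of 28 groups of 5 or 6 libraries examined, 11 held 1 library far above the others by Dixon's criterion. Its rate of about 1 in 20 groups by chance holds for normally distributed values. Sparse CPM are not so distributed, so the 11 cannot be set against that rate. In TAM II, Cxcl1 stood at 1530 CPM in WT intermediate, from 16 cells, against 663 in the next library. In TAM I, Cxcl10 stood at 1507 CPM in KO intermediate against 660. In tumour cells of KO late, Cxcl2 stood at 34.2 CPM (76 of its 136 UMIs in 1 cell), Cxcl16 at 22.4 CPM and Cxcr6 at 8.80 CPM. In the same cells the macrophage markers summed to 858 CPM and the lymphocyte markers to 233 CPM, the highest of the 6 libraries, and their part was not tested.

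Single cells carried 4 of the other values. In endothelial cells of KO late, Cxcl1 stood at 724 CPM and Cxcl2 at 1030 CPM, with 26 and 34 UMIs in 1 cell. In lymphocytes of KO intermediate, Cxcl12 stood at 130 CPM from 28 UMIs of 1 cell, which also held 97 endothelial marker UMIs. In tumour cells of WT late, Cxcl12 stood at 6.80 CPM, with 34 of 40 UMIs in 1 cell. Cxcl10 stood at 430 CPM in lymphocytes of KO late and at 102 CPM, from 9 UMIs, in oligodendrocytes of KO early.

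Cxcl2 was higher in KO than in WT tumour cells at 3 of 3 stages and lower in KO than in WT TAM I at 3 of 3. The difference between these effects was not tested, and the TAM I levels rest on 0 to 47 UMIs per library.

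Barcodes outside the 1000 largest of each library, used in no comparison, also held ligands. Cxcl10 was at 82.0 to 611 CPM there in the tumour libraries and at most 2.59 CPM in the naïve ones, and Cxcl2 at 30.5 to 217 CPM and at most 3.63 CPM.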

How the results depend on the processing

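The member calls between classes kept their direction and their side of the threshold under the alternatives except where stated above; over all members and alternatives 732 values kept both, 23 gained and 8 lost the threshold, and 28 turned in sign. Without the filter on low counts, Cxcl9 and Cxcl10 passed for KO against WT in TAM II (2.58 and 1.56, adjusted p = 3.42e-08 and 0.00613), as did Cxcl1, Cxcl2, Cxcl9 and Cxcl10 in tumour cells (2.57, 1.84, 2.40 and 1.42), and Cxcl9 for late against early TAM II (-1.97). The Cxcl1 value rests on 17 of 3389 tumour cells. Cxcr4 in TAM II passed for KO against WT without WT intermediate (-2.07, adjusted p = 0.0411), Cxcl10 for late against early TAM II without KO early (-1.93, adjusted p = 0.0422), and Cxcl9 for late against early TAM I without KO early or KO late (-9.49 and -8.95) and, with the opposite sign, without WT early (2.79, adjusted p = 0.0416). The cause of these changes was not tested. Depth limits Cxcl3 and the receptors, with 51 to 289 UMIs each, and the WT intermediate and late libraries, with 5 to 21 cells in each of TAM I and TAM II.

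Counts of genes called moved as follows. Without the filter they were 1450 for TAM II against TAM I, 3096 for lymphocytes against TAMs, 6046 for endothelial against other cells, 139, 43 and 208 for tumour-bearing against naïve endothelial cells, astrocytes and oligodendrocytes, 57, 3, 8 and 460 for KO against WT TAM II, TAM I, lymphocytes and tumour cells, and 50 and 13 for late against early TAM II and TAM I. With at least 10 cells per sum they were 84 for naïve endothelial cells, 7 for KO against WT TAM I and 17 for late against early TAM I. With at least 500 genes per cell they were 89 and 31 for naïve endothelial cells and astrocytes, and 3 and 0 for KO against WT TAM II and lymphocytes. Mural-like cells kept gave 167 for naïve endothelial cells. Leiden clustering of all cells gave 6 for astrocytes, 0 for KO against WT tumour cells, and 3 and 1 for late against early TAM II and TAM I. Doublet removal gave 7 for astrocytes and 0 for KO against WT lymphocytes. Without the stage block KO against WT gave 0 in TAM II, lymphocytes and tumour cells. DESeq2 gave 1, 0 and 68 for KO against WT TAM I, lymphocytes and tumour cells, and 4 for late against early TAM I. Another seed gave 0 for KO against WT tumour cells and 3 for late against early TAM I, and clustering with the CXC genes gave 1 for the latter.

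Signs turned in values that had not passed before and in 1 that had: Cxcl9 in endothelial against other cells, at 0.39 with mural-like cells kept. The others were Cxcl1 in endothelial against other cells (-0.085, no filter), Cxcl9 and Cxcl10 in KO against WT TAM I (-0.11 without the stage block, -0.34 with at least 10 cells), Cxcl12 in KO against WT tumour cells (-0.47 without the stage block), Cxcl1 and Cxcl16 in late against early TAM II (-0.18 with at least 500 genes, 0.042 without doublets) and Cxcl10 in late against early TAM I (0.12 with at least 500 genes).

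Leaving out each library in turn, the counts ran from 467 to 928 for TAM II against TAM I, and for tumour-bearing against naïve from 57 to 621 in microglia-like cells, 40 to 84 in endothelial cells, 2 to 21 in astrocytes and 3 to 79 in oligodendrocytes. KO against WT ran from 11 to 86 in TAM II, 0 to 43 in TAM I, 0 to 0 in lymphocytes and 0 to 78 in tumour cells, and late against early from 10 to 73 in TAM II and 2 to 39 in TAM I. In the same way Cxcl1 in endothelial against other cells ran from -0.56 to 0.64 and Cxcl10 in tumour against other cells from -0.22 to 0.43. For KO against WT, Cxcl9 and Cxcl10 in TAM I ran from -0.98 to 8.94 and from -0.34 to 0.97, and Cxcl12 in tumour cells from -0.34 to 1.43. For KO against WT TAM II, Cxcl9 ran from 1.20 to 4.17 and Cxcl10 from 0.79 to 2.51. For late against early TAM II, Cxcl9 ran from -10.86 to -0.032, Cxcl2 from -0.73 to 0.44, Cxcl10 from -1.93 to 0.76, Cxcl16 from -1.05 to 0.51 and Cxcr4 from -1.48 to 1.42, and for TAM I Cxcl9 from -9.49 to 2.79 and Cxcl10 from -0.89 to 0.72. A group left with 1 library was taken to vary like the others. KO against WT lymphocytes with at least 10 cells and without WT early, KO early, WT intermediate or KO intermediate was not run, since too few libraries remained. The labels give no replicate numbers, so mice could not be paired by number between conditions. Classes were paired within their library and genotypes within their stage, with the library or the stage in the model.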

Other observations

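In the early and KO libraries, where lymphocytes were many, Cxcl9 was high in TAM II. The WT early, KO early, KO intermediate and KO late libraries held 69, 32, 41 and 35 lymphocytes and Cxcl9 in TAM II at 1001 to 1559 CPM. The WT intermediate and late libraries held 6 and 4 lymphocytes and Cxcl9 in TAM II at 177 and 0 CPM. Ifng, the gene of interferon gamma, had 82, 80, 11 and 26 UMIs in the lymphocytes of the first 4 libraries and 0 in those of WT intermediate. These are raw UMIs over unlike numbers of cells. The 6 WT intermediate cells held no CD3 UMI, and 3 UMIs would have been 71.6 CPM there. Cxcl11, the third CXCR3 ligand, was at 79.8, 33.1, 70.9 and 67.6 CPM in TAM II of the first 4 and at 0 in WT intermediate and late. These last values come from 16 and 21 cells, and a count of 0 allows up to 28.1 CPM in WT late, so depth limits what they show. This was noticed after the values were seen, and the libraries differ in the number of captured cells of every class, so no relation was tested.

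Dendritic and unnamed myeloid cells carried CXCR3 and CXCR6 ligands as well. Over the tumour libraries Cxcl16 was at 661 CPM in the 26 dendritic cells and Cxcl9 at 358 CPM, and Cxcl9 was at 612 CPM in the 36 unnamed myeloid cells, which were led by Ccl17 and Plbd1. In TAM II, 230 cells held a Cxcl9 UMI and 163 a Cxcl10 UMI, and 115 held both. Cxcl10 was in 50% of the cells with Cxcl9 and in 25.9% of those without, at median depths of 3760.5 and 3181 UMIs. Over the 55 sums, Cxcr3 and Cxcr6 had a Pearson r of 0.90, the closest pair of members, and Cxcl1 and Cxcl2 one of 0.77.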
